A study of Mus musculus with 2 samples.

Results

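Costimulation and activation surface genes encode the receptors through which a T cell receives its second signal and the antigens by which an activated T cell is recognised. The 9 genes described here are Icos, Cd28, Cd200, Cd69, Cd44, Cd83, Tfrc, Cd24a and Cd6, of 15574 genes with at least 1 read in either library. They were chosen by function, with their read levels and their ratios between the libraries already known, and Cd24a was selected on its ratio. Each level and ratio below is therefore a description. RNA was sequenced from T helper 17 (Th17) cells of the mouse, the IL-17-producing subset of CD4 T cells, generated in vitro. Naive T cells of C57BL/6 background, 1 sample of genotype CREB KO and 1 of genotype wildtype, were kept for 6 days under IL-23, IL-1 beta, IL-6 and TGF-beta and then stimulated for 4 h through plate-bound CD3. CREB, the product of Creb1, is a transcription factor that responds to cyclic AMP, and the study set out to identify its target genes in these cells. The sources used here do not give the allele, any Cre driver or the number of mice behind each sample.

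The library labelled CREB KO held 23938112 counted reads and the wildtype library 26525471. With a single library of each genotype no p-value can be given and no replicate error is known. Intervals are exact conditional binomial 95% intervals of the ratio between these 2 libraries. They cover counting error only and may be too narrow, since copies made by PCR cannot be told from separate molecules here. The counts of the targeted gene could not be used to check the label. Creb1 had 25 reads in the library labelled CREB KO and 13 in the wildtype library. That is 2.08-fold more in the former after scaling (1.04 to 4.51). Its mean of 0.766 CPM (read counts scaled to library size) lies below the filter of 1 CPM applied to the genes below. A low count in these files need not mean low expression, since the ferritin gene Fth1 had only 0 and 2 reads. It also cannot be said whether the Creb1 reads lie in the deleted part. All directions below refer to the library labelled CREB KO. In bulk RNA, fewer cells of a type and less RNA per cell cannot be told apart.

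As background, CD28 binds CD80 and CD86 on antigen-presenting cells and lowers the threshold for activation through phosphoinositide 3-kinase. ICOS is a relative of CD28 that is induced after activation, binds ICOS ligand and supports helper cell function. CD69 is among the earliest surface antigens of an activated T cell and holds the sphingosine-1-phosphate receptor S1PR1 inside the cell, while CD44 binds hyaluronan and marks antigen-experienced cells. The transferrin receptor, encoded by Tfrc, brings in the iron that dividing cells need.

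CREB binds the cyclic AMP response element TGACGTCA and, less tightly, shorter parts of it, so the promoters of these genes were searched for TGACGTCA, TGACGT and TGACG on both strands. The shorter motifs lie within the longer one, and TGACGT was added after the sequences had been read. Promoter windows of 250 bases before to 50 after a start, from RefSeq on GRCm38.p6, were matched for 3 of the 9 genes, Cd200, Cd44 and Tfrc. None of their windows held TGACGTCA, which 1.79% of all 32851 windows hold. Cd200 and Tfrc each held TGACGT on one of the strands, and Cd44 held neither this nor TGACG. Of all windows, expressed genes or not, 7.51% hold TGACGT and 20.8% TGACG. Counted per gene, among the 7912 genes with both a window and a mean of 1 CPM or more, 1118 hold TGACGT and 2909 hold TGACG. The stretch before the Cd200 start (chr16:45409054-45409303, minus strand) and the 30 bases around the Tfrc match (chr16:32608897-32608926, plus strand) are printed because they carry these matches, with the matching letters in capitals.
Cd200: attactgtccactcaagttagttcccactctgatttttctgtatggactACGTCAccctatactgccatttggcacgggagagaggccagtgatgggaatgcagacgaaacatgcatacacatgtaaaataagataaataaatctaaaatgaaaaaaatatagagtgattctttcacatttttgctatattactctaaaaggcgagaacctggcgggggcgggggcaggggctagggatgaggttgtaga
Tfrc: tgcggaaggaagTGACGTagatccagaggg
The Cd200 match, on the strand opposite to the gene, begins 201 bases before the start. The Tfrc match begins 14 bases after one annotated start and 213 bases before the other. A match is not a binding site, and no binding was measured. Among the 7912 genes with both a window and a mean of 1 CPM or more (read counts scaled to library size), the 1118 with TGACGT had a median log2 ratio of -0.02 and the others of -0.0040.

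The levels of the 9 genes spanned a wide range. All 9 passed the filter of a mean of 1 CPM. Levels are compared between genes per length, as RPKM, the CPM per kilobase of merged exons. Icos was highest on this scale, at 171 RPKM in the library labelled CREB KO and 199 in the wildtype library, followed by Cd28 at 134 and 149. Both levels lay above those of 97.7% and 96.8% of the tested genes, respectively. By the length of the longest transcript instead, Cd28 lay just above Icos (199.6 against 196 RPKM, mean of both libraries), so the order of this pair depends on the length used. Cd200 (71.3 and 60.3 RPKM), Tfrc (67.6 and 61.3) and Cd24a (42.7 and 70.0) formed a middle group. Within it the order differed between the libraries, since Cd24a was lowest of the 3 in the library labelled CREB KO and highest in the wildtype library. Cd69 stood at 14.2 and 15.99 RPKM and Cd6 at 11.2 and 10.5. Cd83 (1.52 and 1.32 RPKM) and Cd44 (0.676 and 0.842) were far below the rest. The highest and lowest of the 9, Icos and Cd44, were 244-fold apart in mean RPKM. A low count in these files need not mean low expression, and the low count of Cd44 is taken up below.

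**Figure D1:**
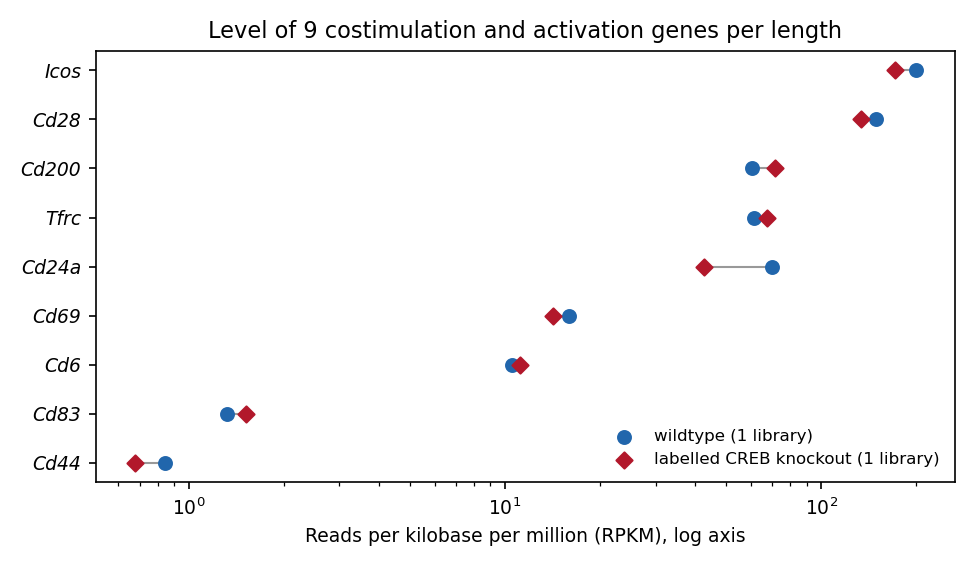
Level of each gene per length (RPKM, log axis) in the wildtype library (circles) and the library labelled CREB KO (diamonds), 1 library each, ordered by the mean. Icos and Cd28 lie above 100 RPKM in both libraries, Cd83 and Cd44 below 2, and the distance between the symbols is widest for Cd24a.

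Between the libraries, 4 of the 9 genes had a ratio above 1 and 5 below, and Cd24a alone was 1.2-fold or more apart with an interval excluding 1. It was lower in the library labelled CREB KO. Over all 10462 genes averaging 1 CPM or more, 5.48% were lower and 6.19% higher by this rule, and 0 of the 9 were higher. Among the 2162 genes averaging 100 CPM or more, where counting error is small, 1.02% were lower and 1.2% higher. Of the 9 genes, 5 reach that level (Icos, Cd28, Cd200, Tfrc and Cd24a), and Cd24a is again the 1 called. Since Cd24a was selected on its ratio, its call is no result about the 9, and no other member was called at either level. The median log2 ratio of the 9 was -0.16, against -0.0076 over all tested genes. Without Cd24a it was -0.03. With the limit set at 1.1-fold, 4 were lower, Cd24a included (12.6% of tested genes), and 2 higher (11.5%). By the interval alone, the same 4 were lower (19.5% of tested genes) and 3 higher (16.2%). The libraries differ by more than counting error, with an SD of log2 ratios of 0.121 at 100 CPM or more, so an interval that excludes 1 does not set a gene apart from other genes.

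**Figure D2:**
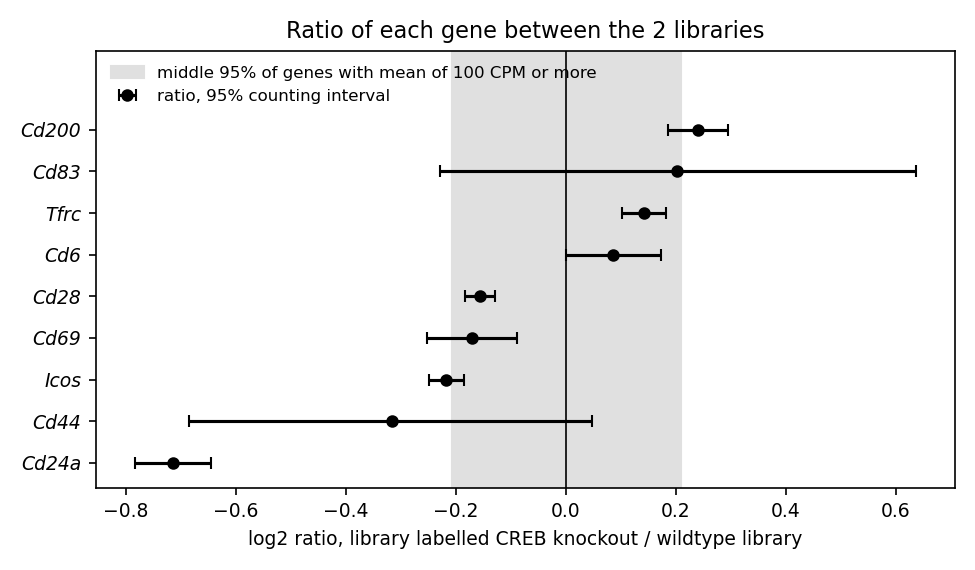
Log2 ratio of each gene (library labelled CREB KO over wildtype library; points) with its 95% counting interval (bars); the grey band holds the middle 95% of the 2162 genes averaging 100 CPM or more, from -0.21 to 0.21. Cd24a lies far below the band, Icos just below it, Cd44 also below it and Cd200 just above it, while the intervals of Cd44 and Cd83 include 0.

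Icos and Cd28 were a little lower, with small ratios. The other well-read receptors of the family, Ctla4 and Pdcd1, each had a ratio of 1.04 and an interval that includes 1. Icos (chromosome 1, 60977927 to 61000320, plus strand, GRCm38) had 14102 reads in the library labelled CREB KO and 18065 in the wildtype library, or 588 and 683 CPM. It was 1.16-fold lower (1.14 to 1.19), and 1.99% of the genes averaging 100 CPM or more had a lower ratio. Cd28 (chromosome 1, 60716800 to 60773359, plus strand) had 19706 and 24187 reads, or 821 and 914 CPM. Its ratio was 1.11-fold lower (1.09 to 1.13), with 8.09% of those genes below it, and it lies within the spread of other well-read genes.

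Ctla4, which encodes the inhibitory receptor that competes with CD28 for its ligands, lies between Cd28 and Icos on the same strand, 114 kb from the former and 62.1 kb from the latter. It had 2688 and 2840 reads, or 112 and 107 CPM, a ratio of 1.04 (0.989 to 1.1). Icos and Cd28 were thus a little lower, while the interval of Ctla4 includes 1 and gives it no direction. Read ratios within a library do not depend on scaling: Ctla4 had 0.136 reads per Cd28 read in the library labelled CREB KO and 0.117 in the wildtype library, 1.16 times as many (1.098 to 1.23). Icos had 0.716 and 0.747 reads per Cd28 read, 0.958 times as many (0.931 to 0.986). The gene pairs here and below were chosen after their values were seen, so each quotient is a description. The cluster ends 3.53 Mb before Creb1. The 27 tested genes within 5 Mb of Creb1, these neighbours included, had a median log2 ratio of 0.06, with 4 higher and 0 lower by 1.2-fold with an interval excluding 1, where 6.19% and 5.48% of all tested genes were. The median over the 560 tested genes of chromosome 1 was -0.03.

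Cd200 encodes a membrane glycoprotein that signals to CD200R1, an inhibitory receptor found mainly on myeloid cells. Cd200 (chromosome 16, 45382135 to 45409053, minus strand) had 5685 reads in the library labelled CREB KO and 5302 in the wildtype library, or 237 and 200 CPM. It was 1.18-fold higher (1.14 to 1.23), the highest ratio of the 9, and ranked 35 from the highest among the 2162 genes averaging 100 CPM or more. There were 0.403 Cd200 reads per Icos read in the library labelled CREB KO and 0.293 in the wildtype library. That is 1.37 times as many (1.31 to 1.43). The pair was chosen after both ratios were seen, so the quotient restates them. The gene of its receptor, Cd200r1, had 138 and 170 reads.

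Of the early activation genes, Cd69 was a little lower and Cd83 had too few reads for a direction. Cd69 (chromosome 6, 129267325 to 129275436, minus strand) had 2220 reads in the library labelled CREB KO and 2753 in the wildtype library, or 92.5 and 104 CPM, and was 1.13-fold lower (1.06 to 1.19). S1pr1, whose product CD69 retains, had 4659 and 5468 reads. Cd69 had 0.476 and 0.503 reads per S1pr1 read, and the quotient of 0.946 has an interval that includes 1 (0.883 to 1.01). Cd83, an activation antigen better known from mature dendritic cells and B cells, lies on chromosome 13 (43784775 to 43803132, plus strand). It had 94 and 90 reads, or 3.92 and 3.40 CPM, a ratio of 1.15 (0.853 to 1.55).

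Tfrc (chromosome 16, 32608920 to 32632794, plus strand) had nearly the same raw count in both libraries, 10034 and 10023 reads, which is 418 CPM in the smaller library labelled CREB KO and 379 in the wildtype library. It was 1.103-fold higher (1.073 to 1.134), and 92.7% of the genes averaging 100 CPM or more had a lower ratio. Against Cd69, another gene that rises with activation, Tfrc had 4.52 reads per read in the library labelled CREB KO. In the wildtype library it had 3.64, a quotient of 1.24 (1.17 to 1.32). This pair too was chosen after both ratios were seen. The other genes of iron uptake and storage were close between the libraries. Of the 9 tested genes of that list, Tfrc included, 0 were 1.2-fold apart in either direction, and the median log2 ratio was -0.03. The mitochondrial iron importer gene Slc25a37 had 933 and 1180 reads and was 1.15-fold lower (1.05 to 1.25), and Slc11a2, the endosomal iron transporter gene, had 670 and 700 reads, a ratio of 1.05 (0.947 to 1.17).

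Of the 9 genes, Cd24a differed most between the libraries. It was selected on its ratio, so its rank below describes that choice and is no separate result. It encodes a small, heavily glycosylated antigen anchored in the membrane by a lipid, which can costimulate T cells and is also abundant on immature B cells, thymocytes and erythroid precursors. Cd24a (chromosome 10, 43578284 to 43584265, plus strand) had 2642 reads in the library labelled CREB KO and 4778 in the wildtype library, or 110 and 181 CPM, and was 1.64-fold lower (1.56 to 1.72). It ranked 3 from the lowest among the 2162 genes averaging 100 CPM or more, after the cytokine genes Il17f (13041 and 39898 reads) and Il17a (6981 and 13093 reads). These 3 are all the genes at that level that were 1.5-fold or more lower with an interval excluding 1, 0.139% of them. Read against Cd6, whose count hardly differed, Cd24a had 1.24 reads per read in the library labelled CREB KO and 2.15 in the wildtype library.

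Since Cd24a is also a gene of other cell types, their markers are given beside it. A count of 0 in these files need not mean no expression, because Fth1, a ferritin gene that every cell uses, had only 0 and 2 reads. Of 9 B cell markers, Ms4a1, Fcer2a, Pax5 and Blk had no reads, Cd79a had 26 in each library, and the list summed to 7.42 CPM in the library labelled CREB KO and 9.07 in the wildtype library. Most of that sum was Ebf1, with 122 and 186 reads, 1.38-fold lower (1.09 to 1.75). Erythroid markers summed to 2.08 CPM in both libraries, with 0 reads for 6 of 10 genes and at most 1 for the globin genes. Dendritic cell and macrophage markers summed to 5.0 and 5.52 CPM, with no reads for Lyz2. Granulocyte markers summed to 0.625 and 0.567 CPM, and CD8 and NK cell markers to 12.8 and 12.2 CPM, mostly Cd8b1 (234 and 237 reads). Of the CD8 and NK cell markers, Cd8a, Klrb1c, Ncr1 and Klrk1 had no reads. The part of other cell types in the Cd24a ratio was not tested. A part of 2.75% of its 50-base sequences is shared with the annotated gene Gm6212, which had no reads in either library. Reads from such copies could have been dropped, and the part of this in the ratio was not tested.

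Cd44 and Cd6 encode adhesion molecules. Cd44 (chromosome 2, 102811141 to 102901665, minus strand) had only 110 reads in the library labelled CREB KO and 151 in the wildtype library, or 4.58 and 5.71 CPM. Its ratio was 1.24-fold lower, and its interval of 0.968 to 1.61 includes 1. The level of Cd44 lay above only 14.8% of tested genes per length. Cd44 is the member with the most curated RefSeq transcripts, 6, against 1 or 2 for the others. Protein-coding genes with 6 or more of them had a median of 0.645 RPKM, against 3.47 for the 7994 genes with 1. In CPM, which is not divided by exon length, these medians were 4.10 and 15.3. The files hold uniquely assigned reads, and the sources used here do not say whether reads shared by several transcripts were counted. The share of genes below 1 CPM was about the same in both sets, 31.0% and 30.6%, and the part of the transcript number in the low count of Cd44 was not tested.

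Cd6 encodes a scavenger receptor family protein of T cells that binds ALCAM and tunes signals from the T cell receptor. Cd6 (chromosome 19, 10789341 to 10830058, minus strand) had 2137 reads in the library labelled CREB KO and 2218 in the wildtype library, or 89.0 and 83.8 CPM. It was 1.06-fold higher (1.0002 to 1.127), the ratio closest to 1 of the 9. Its relative Cd5 had 14552 and 16676 reads, and there were 0.147 and 0.133 Cd6 reads per Cd5 read, 1.104 times as many (1.036 to 1.177). Alcam, the gene of its ligand, had 1018 and 1021 reads and was 1.099-fold higher (1.007 to 1.2).

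**Figure D3:**
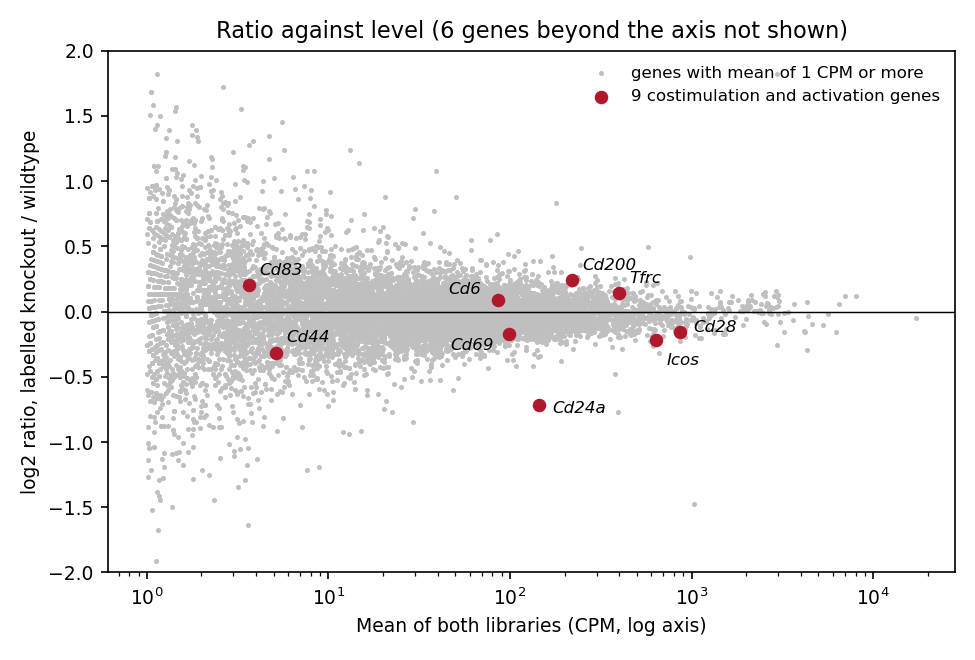
Log2 ratio (library labelled CREB KO over wildtype library) against the mean CPM of both libraries (log axis) for the 10462 genes averaging 1 CPM or more (grey) and the 9 genes (red); 6 genes beyond 2 log2 units are not shown. The spread narrows with level, Cd24a stands below the cloud at its level, and Cd44 and Cd83 lie where ratios scatter widely.

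The 9 genes can also be set out by the number of curated transcripts. Those with 1 (Icos, Cd28, Cd69 and Cd24a) all had ratios below 1, and Cd24a was selected on its ratio. Of those with 2 or more, Cd200, Cd83, Tfrc and Cd6 were above 1 and Cd44 was below. The intervals of Cd83 and Cd44 include 1, so these 2 have no clear direction. Over all tested protein-coding genes no such step was seen, with a median log2 ratio of -0.01 for the 5546 genes with 1 curated transcript, -0.0047 for the 2186 with 2 and 0.0017 for the 428 with 6 or more. No gene of the 9 shares annotated exon bases with another gene on either strand.

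Around the 9 genes, most genes of the same pathways were close between the libraries, as were most tested genes. By the rule of 1.2-fold with an interval excluding 1, 6.19% of all tested genes were higher and 5.48% lower. At those shares a short list would hold few called genes or none. The lists were chosen with earlier results of these data known, so the counts below are descriptions and no test of a list. The 12 genes of the CD28 family and its B7 ligands included 9 tested, of which Cd80 and Pdcd1lg2 were 1.2-fold or more higher and Cd86 lower, each with an interval excluding 1 (median log2 ratio 0.06). Pdcd1lg2, a ligand gene of PD-1, had 532 and 405 reads. Of 22 tested genes of costimulation signalling, the phosphoinositide 3-kinase subunit gene Pik3r1 (400 and 361 reads, 1.22-fold, 1.06 to 1.41) and Nfatc2 (283 and 231 reads, 1.35-fold, 1.13 to 1.61) were higher and 0 lower, with a median of 0.02. Ppp2r2a, a regulatory subunit gene of the phosphatase PP2A, had 2286 and 2841 reads and was 1.13-fold lower (1.07 to 1.19).

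None of 11 tested CD2 and SLAM family genes and none of 8 tested genes around CD5 and CD6 were 1.2-fold apart with an interval excluding 1 (medians -0.0047 and -0.02). Cd48, Cd84 and Cd2ap were 1.08-fold lower, 1.13-fold higher and 1.11-fold lower. None of 10 RNA-binding regulators of costimulatory transcripts was 1.2-fold apart either (median 0.08). Rc3h1, which encodes the Roquin protein known to destabilise Icos messenger RNA, had 1565 and 1475 reads and was 1.17-fold higher (1.09 to 1.26). Zfp36, the gene of the decay factor tristetraprolin, had 2074 and 2571 reads and was 1.12-fold lower (1.06 to 1.19).

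Of 19 tested genes in the list of other activation surface antigens, 2 were 1.2-fold or more higher, 1 was lower and the median was -0.12. Tnfrsf18, which encodes the costimulatory receptor GITR, had 3736 and 3417 reads and was 1.21-fold higher (1.15 to 1.26). Basp1, also counted in this list, encodes a membrane-associated signalling protein and not a surface antigen. It had 5487 and 3388 reads and was 1.78-fold higher (1.71 to 1.86). Ly6a, the gene of the Sca-1 antigen, had 543 and 724 reads and was 1.21-fold lower (1.08 to 1.35). Among 9 tested ligands and regulators of the 9 genes, Cd80 was higher and Cd86 lower, with a median of -0.07. Both are the same genes as those counted in the CD28 family list.

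Markers of the labelled cell type were detected. All 11 T cell identity genes were tested, and they summed to 5621 CPM in the library labelled CREB KO and 5737 in the wildtype library. Of them, 0 were 1.2-fold apart with an interval excluding 1, a rule by which 6.19% of all tested genes were higher and 5.48% lower. Of 10 Th17 identity genes, 9 were tested, and Il17a, Il17f, Rora and Il23r were lower by that rule; Il1r1, the untested one, had 0 and 3 reads.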

How the data were processed

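The deposited files hold raw counts of uniquely assigned reads per gene symbol, per the file headers, whose totals equal the sums of the counts. HTSeq, bcl2fastq and the build mm10 are named in the submitters' processing notes, but no aligner, annotation or strand setting is given in the sources used here. Genes absent from a file were taken as 0 reads. Counts were scaled by edgeR's trimmed mean of M-values (TMM; edgeR 4.0.16, R 4.3.3). A prior count of 0.5, in proportion to library size, was added before each ratio. The edgeR quasi-likelihood test cannot be fitted with 1 library per group. Positions and exon lengths come from GENCODE M21 (GRCm38). Besides the 9 genes, Creb1 and Ctla4, up to 3 genes per list with the largest ratios at 10 CPM or more were named, and other genes as partners of a member, chosen after their values were seen, like the gene pairs. The members and lists were chosen with earlier results of these data known. Results for a few genes that these rules take are not reported here. Ratio steps were tested on simulated data. Scaling alternatives included DESeq2 1.42.0 size factors. Python 3.11.15, scipy 1.17.1 and matplotlib 3.10.9 were used.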

Additional observations from a re-analysis of the deposited data

How the results depend on the processing

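No paired analysis was possible because each genotype has 1 library and no replicate number, and for the same reason no library could be left out. Under scaling by total counts, DESeq2 size factors or upper quartiles, a prior count raised to 5, the deeper library thinned to the depth of the other and, added after the data were seen, scaling to the 11 T cell identity genes, all 9 ratios kept their direction, with shifts of at most 0.0311 on the log2 scale. Scaling to the T cell identity genes moved the log2 ratio of Cd28 from -0.16 to -0.13 and added 1 gene, Cd200, to the 0 called higher. With a limit of 1.1-fold, 2 genes were higher (11.5% of all tested genes) and 4 lower (12.6%), against 0 and 1 at 1.2-fold. By the interval alone 3 were higher and 4 lower. Cd24a, selected on its ratio, is counted as lower each time. The limit of 1.5-fold and the filters on low counts left both counts the same. The median log2 ratio of the 9 genes ranged from -0.16 to -0.03 over 8 alternatives. Per length of the longest transcript, mean levels were 196 RPKM for Icos, 199.6 for Cd28, 93.2 for Cd200, 81.5 for Tfrc, 80.0 for Cd24a, 19.8 for Cd69, 18.5 for Cd6 and 0.917 for Cd44, since that length is shorter than the merged exons. Depth limits Cd44 and Cd83, whose intervals include 1. The related lists together had 6 genes higher and 2 lower, and 7 and 2 with no filter on low counts. Over all tested genes, 6.19% were higher and 5.48% lower.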

Other observations

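The genes of the ligands that CD28 and CTLA-4 share, which are best known from antigen-presenting cells but are also made by activated T cells, stood on opposite sides. Cd80 had 922 reads in the library labelled CREB KO and 795 in the wildtype library and was 1.28-fold higher (1.16 to 1.41). Cd86 had 573 and 892 reads and was 1.41-fold lower (1.27 to 1.57). The pair was set side by side after both ratios were seen. There were 1.61 Cd80 reads per Cd86 read in the library labelled CREB KO and 0.891 in the wildtype library. That is 1.81 times as many (1.56 to 2.09), a quotient that does not depend on the scaling of the libraries. Dendritic cell and macrophage markers stood at 5.0 and 5.52 CPM in sum, and their part in this difference was not tested.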
